A study of Mus musculus with 12 samples.

Results

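The transcripts of 10 genes were followed, 5 that encode the NF-kB subunits (Nfkb1, Nfkb2, Rel, Rela and Relb) and 5 that encode proteins of the IkB family (Nfkbia, Nfkbib, Nfkbie, Nfkbiz and Bcl3). They were taken by name from 24346 listed gene symbols, and all 10 were among the 10797 symbols that passed a filter of at least 1 FPKM in at least 2 libraries. FPKM counts sequenced fragments per length of transcript and per mapped total, so levels of different genes can be set side by side. The cells were marginal zone B cells of Trpm5-/- and of wild-type mice, harvested at 4 h after exposure to lipopolysaccharide (LPS) or to anti-IgM, an antibody to the B cell receptor, both at 10 µg/mL, or after 4 h with neither. Every combination of genotype and condition was sequenced as 2 libraries, which gives 6 groups and 12 libraries. Age, sex and strain of the mice, the part of Trpm5 that is deleted, and whether replicate libraries stem from different animals, are not stated by the labels. A p-value here therefore speaks only of library-to-library spread, part or all of which may be technical.

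NF-kB transcription factors are dimers of 5 related subunits. Rela, Rel and Relb carry activation domains, whereas Nfkb1 and Nfkb2 encode the precursors p105 and p100, which are processed to the DNA-binding subunits p50 and p52 and, while uncut, hold other subunits in the cytoplasm. The classical IkB proteins, IkB-alpha (Nfkbia), IkB-beta (Nfkbib) and IkB-epsilon (Nfkbie), mask the nuclear localization signal of the dimers until the IKK kinase marks them for destruction, and several of them are themselves transcribed by NF-kB. IkB-zeta (Nfkbiz) and Bcl3 act in the nucleus, where they bind p50 or p52 and alter which genes are transcribed. In B cells LPS reaches this pathway through Toll-like receptor 4, and anti-IgM reaches it by cross-linking the B cell receptor. Trpm5 encodes a cation channel opened by intracellular calcium, and the design tests how its loss alters these 2 responses.

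The promoters of 7 of the 10 genes were found in the RefSeq table (GRCm38.p6, the assembly called mm10), each as 250 bases before and 50 bases after a start of transcription. They are shown because most of these genes moved together under LPS, and because Rel rose and Bcl3 fell under anti-IgM. Capitals mark matches, on either strand, to the degenerate NF-kB consensus site, and overlapping matches run together. Nfkbia had the largest rise of the classical inhibitors under LPS (chr12:55492598-55492897, minus strand). Rel rose under both stimuli (chr11:23770920-23771219, minus strand), and Nfkb2 under LPS in both genotypes (chr19:46304487-46304786, plus strand, the first of 3 listed promoters). Bcl3 was higher with LPS, except in wild-type cells with quantile normalization, and lower with anti-IgM (chr7:19822706-19823005, minus strand). Rela had the smallest range over the libraries (chr19:5637291-5637590, plus strand).
Nfkbia: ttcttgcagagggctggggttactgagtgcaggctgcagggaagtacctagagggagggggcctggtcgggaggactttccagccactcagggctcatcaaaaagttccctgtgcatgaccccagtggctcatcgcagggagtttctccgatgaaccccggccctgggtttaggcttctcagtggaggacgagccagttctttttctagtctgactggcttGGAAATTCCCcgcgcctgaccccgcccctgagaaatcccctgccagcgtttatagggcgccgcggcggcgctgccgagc
Rel: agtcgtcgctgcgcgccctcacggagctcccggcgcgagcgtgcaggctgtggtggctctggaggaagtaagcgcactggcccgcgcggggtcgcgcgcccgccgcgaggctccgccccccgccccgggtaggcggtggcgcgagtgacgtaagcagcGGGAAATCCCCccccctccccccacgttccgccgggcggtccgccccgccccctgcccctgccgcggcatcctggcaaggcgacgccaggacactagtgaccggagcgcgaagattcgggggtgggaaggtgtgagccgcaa
Nfkb2: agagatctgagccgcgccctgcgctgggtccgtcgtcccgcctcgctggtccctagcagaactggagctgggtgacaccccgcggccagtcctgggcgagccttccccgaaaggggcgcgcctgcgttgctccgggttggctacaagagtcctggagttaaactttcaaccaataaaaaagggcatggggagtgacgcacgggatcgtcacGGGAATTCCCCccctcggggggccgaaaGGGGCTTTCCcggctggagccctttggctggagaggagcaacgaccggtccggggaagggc
Bcl3: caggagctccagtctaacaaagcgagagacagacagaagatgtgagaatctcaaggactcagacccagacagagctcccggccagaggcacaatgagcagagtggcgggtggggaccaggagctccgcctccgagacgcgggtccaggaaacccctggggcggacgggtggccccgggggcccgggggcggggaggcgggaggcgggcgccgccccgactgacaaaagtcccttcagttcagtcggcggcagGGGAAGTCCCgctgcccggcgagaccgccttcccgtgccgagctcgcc
Rela: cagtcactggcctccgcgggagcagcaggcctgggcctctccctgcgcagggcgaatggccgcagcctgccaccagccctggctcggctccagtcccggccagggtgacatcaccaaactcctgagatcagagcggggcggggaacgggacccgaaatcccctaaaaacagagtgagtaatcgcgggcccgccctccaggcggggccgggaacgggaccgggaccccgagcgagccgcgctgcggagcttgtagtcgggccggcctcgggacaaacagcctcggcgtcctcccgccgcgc
A match was found for 5 of the 7 genes (Nfkb2, Rel, Nfkbia, Nfkbie and Bcl3) and none in the windows of Rela and Nfkbib. Counted by promoter, since Nfkb2 has several, 7 of 9 held a match, beside 4.50% of all 32817 promoters of that length. All listed Nfkb2 promoters are among these 7. Those that begin at 46305445 and 46305680 overlap and share a GGGACTTTCC site, so that site is counted in both. The match of Nfkbia began 29 bases upstream of the start, those of Rel 92 and 91 bases upstream, and that of Nfkbie, GGGGGATTCC, 106 bases upstream. In the promoter shown for Nfkb2 the matches began 39, 38 and 11 bases upstream, and in that of Bcl3 the match began at base 2 after the start. These are matches of letters and no measure of binding.

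FPKM summed to between 563461 and 805373 in a library, highest with LPS, and between 12737 and 13483 symbols were above 0. No read totals were at hand. Trpm5 read at most 0.0303 FPKM in Trpm5-/- libraries and 0.0196 to 0.434 FPKM in wild-type libraries, too low to test. The 6 B cell markers, among them Cd79a, summed to at least 1632 FPKM in every library, and the marginal zone markers, Cr2, Cd9 and 6 others, to between 562 and 1291 FPKM. Of the T cell markers Lck alone passed the filter, and Cd3e, Cd3d and Cd3g stayed near 0. The erythroid markers summed to 100.5 to 681 FPKM, so some erythroid RNA was present. Macrophage and monocyte markers summed to 15.3 to 31.6 FPKM, and 3 of those 6 passed the filter. Of these Lyz2 read 10.5 and 11.3 FPKM in Trpm5-/- and 5.69 and 5.31 FPKM in wild-type cells with LPS. With anti-IgM it read 9.34 and 13.1 against 5.51 and 5.22 FPKM. Cd68 and Adgre1 overlapped between genotypes in every condition, as did Lyz2 without stimulus. The part of such cells was not tested. In bulk RNA fewer cells of a type and less RNA per cell cannot be told apart.

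Without stimulus, Nfkbia was the most abundant of the 10 transcripts and Nfkbiz the least. Nfkbia read 197 and 190.3 FPKM in the Trpm5-/- libraries, against 219 and 222 FPKM in the wild-type libraries. Nfkbiz read 14.0 and 16.6 FPKM in Trpm5-/- and 14.5 and 14.4 FPKM in wild-type cells. Between these came, by mean level in wild-type cells, Nfkb2, Rela, Relb, Bcl3, Nfkbie, Nfkbib, Rel and Nfkb1. Relb and Bcl3 did not differ beyond their spread in this order, and in Trpm5-/- cells neither did Nfkb2 and Rela nor the neighbours in the run Relb, Nfkbib, Nfkbie and Bcl3. Averaged over the 12 libraries, all 10 stood above at least 80.6% of the tested genes, and Nfkbia above 98.0%. The Nfkbiz range was the widest, with a highest library 24.1 times the lowest, and the Rela range the narrowest, between 78.2 and 118 FPKM.

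**Figure D1:**
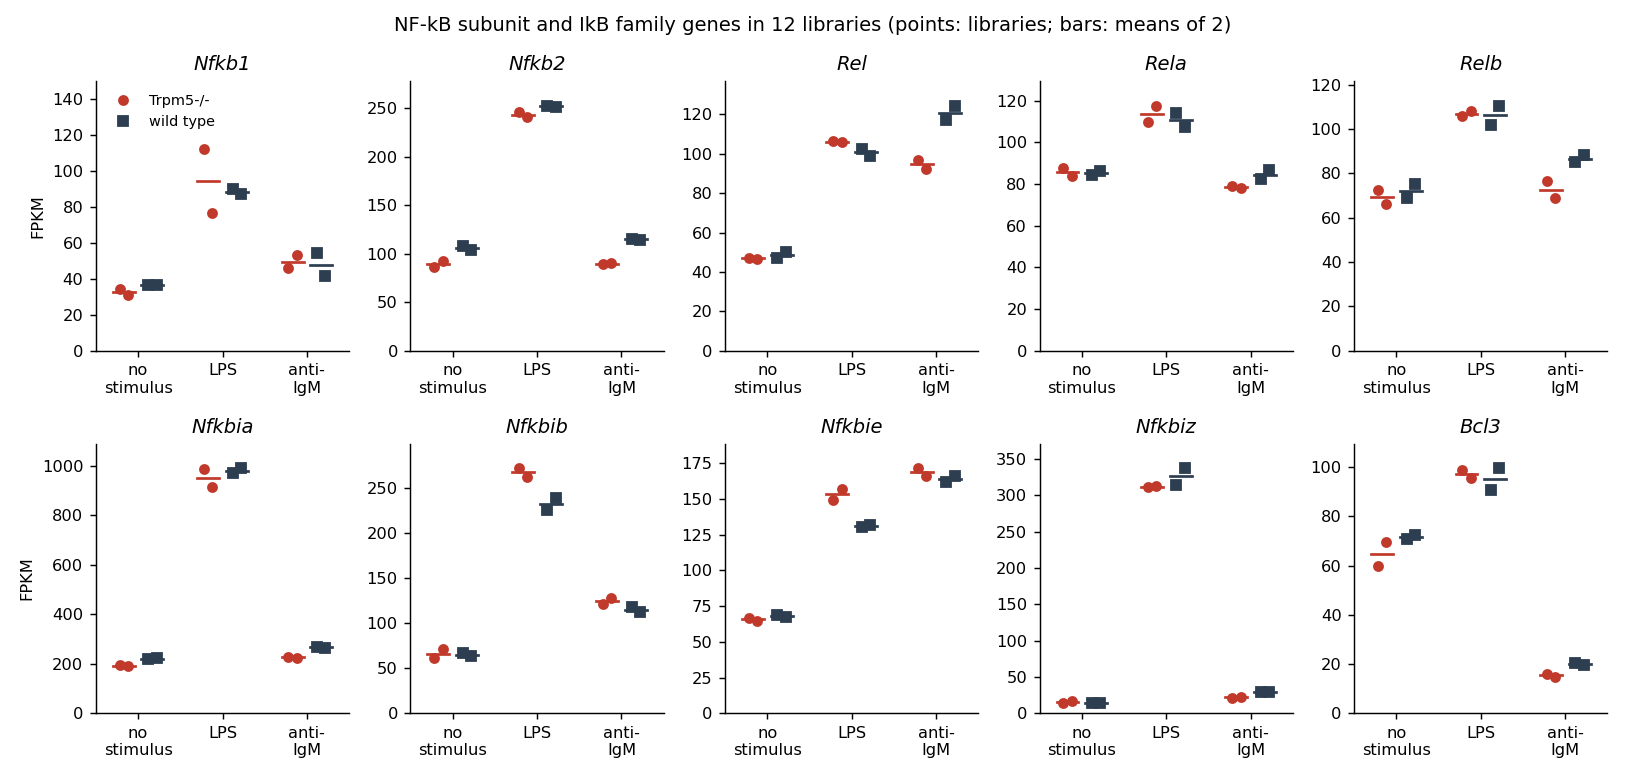
FPKM (vertical axes, each from 0) of the 10 genes in the 12 libraries by condition, with Trpm5-/- libraries as red circles, wild-type libraries as dark squares and means of 2 as bars. Nfkbiz stood between 311 and 337 FPKM with LPS and at most at 30.1 FPKM elsewhere, and Bcl3 with anti-IgM stood between 15.0 and 20.6 FPKM, below its unstimulated level in both genotypes.

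All 10 transcripts were called higher with LPS, in Trpm5-/- and in wild-type cells, although with quantile normalization 8 and 7 were called and Rela in both genotypes and Bcl3 in wild-type cells turned below 0. Of all tested genes 34.8% and 35.0% were called higher and 33.8% and 34.4% lower. Differences are on the log2(FPKM + 1) scale, from a limma model of the 12 libraries, and were called where the Benjamini-Hochberg adjusted p was under 0.05. Errors beside them are standard errors. The median difference of the 10 genes was 1.32 in Trpm5-/- and 1.14 in wild-type cells, beside -0.02 for all tested genes in each genotype. Quantile normalization lowered the LPS difference of the 2090 genes with a mean at or above that of Nfkb1, the least abundant of the 10 by that mean (58.3 FPKM), by a median of 0.44 in Trpm5-/- and 0.45 in wild-type cells. The summed B cell markers stood at 2751 to 2813 FPKM in Trpm5-/- cells with LPS, against 5131 to 5142 FPKM without stimulus, and at 3375 to 3434 and 5374 to 5618 FPKM in wild-type cells. Their part in the LPS result was not tested.

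Among the subunits, the precursor genes rose most under LPS. Nfkb2 read 247 and 241 FPKM in Trpm5-/- cells with LPS, against 86.3 and 92.7 FPKM without stimulus. In wild-type cells the values were 253 and 251 FPKM with LPS and 108 and 104 FPKM without. The LPS libraries of Nfkb2 lay far above the others in both genotypes, with differences of 1.44 ± 0.05 and 1.24 ± 0.05 (limma adjusted p = 3.85e-09 and 8.6e-09). Nfkb1 read 112 and 76.5 FPKM in Trpm5-/- cells with LPS, against 34.5 and 31.0 FPKM without stimulus. The Trpm5-/- LPS libraries of Nfkb1 were the pair farthest apart among its groups, and their wild-type counterparts were close, at 89.9 and 87.1 FPKM with LPS and 36.6 and 36.7 FPKM without. Its rises were 1.48 ± 0.17 in Trpm5-/- and 1.25 ± 0.17 in wild-type cells (limma adjusted p = 1.8e-05 and 6.3e-05).

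Rel, the subunit c-Rel that drives B cell proliferation and survival, roughly doubled under LPS. It read 106 FPKM in both Trpm5-/- libraries with LPS, against 47.2 and 46.6 FPKM without stimulus. Wild-type cells read 103 and 99.0 FPKM with LPS and 47.1 and 50.0 FPKM without. In each genotype the LPS libraries of Rel lay above the unstimulated ones, and the rises were 1.16 ± 0.06 and 1.04 ± 0.06 (limma adjusted p = 2.95e-08 and 6.4e-08). Relb, the usual partner of p52, read 106 and 108 FPKM in Trpm5-/- and 102 and 111 FPKM in wild-type cells with LPS, against 66.3 to 75.0 FPKM in the 4 unstimulated libraries. It rose by 0.62 ± 0.07 in Trpm5-/- and 0.55 ± 0.07 in wild-type cells. Rela, which carries much of the rapid response, rose least of the subunits, by 0.40 ± 0.06 and 0.37 ± 0.06, to a mean of 114 ± 5.62 FPKM in Trpm5-/- and 111 ± 4.71 FPKM in wild-type cells with LPS (SD, n = 2). With quantile normalization the Rela difference turned to -0.07 in Trpm5-/- and -0.11 in wild-type cells, and neither Rela nor wild-type Relb kept its call.

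The classical inhibitors rose more than 3-fold for Nfkbia and Nfkbib and about 2-fold for Nfkbie. Nfkbia, whose product is destroyed and remade with each pulse of NF-kB activity, read 985 and 912 FPKM in Trpm5-/- cells with LPS, against 197 and 190.3 FPKM without stimulus. In wild-type cells the values were 971 and 990.0 FPKM with LPS, against 219 and 222 FPKM without. Its level with LPS was the highest of the 10 genes, 4.88-fold and 4.44-fold that without stimulus on the log2(FPKM + 1) scale (2.29 ± 0.05 and 2.15 ± 0.05, limma adjusted p = 3.25e-10 and 5.21e-10). Nfkbib, whose product turns over more slowly, read 272 and 263 FPKM in Trpm5-/- and 225 and 239 FPKM in wild-type cells with LPS, against 61.4 to 71.0 FPKM in the 4 unstimulated libraries. Nfkbib rose 4.01-fold in Trpm5-/- and 3.52-fold in wild-type cells (limma adjusted p = 4.31e-09 and 7.04e-09). Nfkbie, which curbs dimers that hold Rel or Rela, read 149.6 and 157 FPKM in Trpm5-/- and 130.3 and 132 FPKM in wild-type cells with LPS, against 64.9 to 69.2 FPKM without stimulus. No stimulated library of Nfkbie overlapped an unstimulated one, and it rose by 1.20 ± 0.05 and 0.93 ± 0.05. GENCODE M21 places Nfkbib (chromosome 7, 28758251 to 28767512) so that it overlaps the oppositely transcribed Sirt2 by 778 bases, and Nfkb2 so that it overlaps Psd by 299 bases. No counting by strand is stated in the sources used here, so reads from such overlaps may be shared.

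The nuclear proteins parted in size. Nfkbiz, which is needed for a secondary wave of LPS-induced genes such as Il6, read 311 and 313 FPKM in Trpm5-/- cells with LPS, against 14.0 and 16.6 FPKM without stimulus. In wild-type cells the values were 315 and 337 FPKM with LPS and 14.5 and 14.4 FPKM without. This was the largest change of the 10, 19.2-fold in Trpm5-/- and 21.2-fold in wild-type cells on the log2(FPKM + 1) scale (4.27 ± 0.08 and 4.40 ± 0.08, limma adjusted p = 2.03e-10 and 1.45e-10). Bcl3, which binds p50 and p52 homodimers, read 98.9 and 95.6 FPKM in Trpm5-/- cells with LPS, against 60.1 and 69.7 FPKM without. In wild-type cells the values were 90.7 and 99.6 FPKM with LPS and 71.0 and 72.4 FPKM without. Bcl3 rose by 0.58 ± 0.08 and 0.40 ± 0.08 (limma adjusted p = 9.55e-05 and 0.00125), but with quantile normalization neither rise was called, and the wild-type value turned to -0.01.

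**Figure D2:**
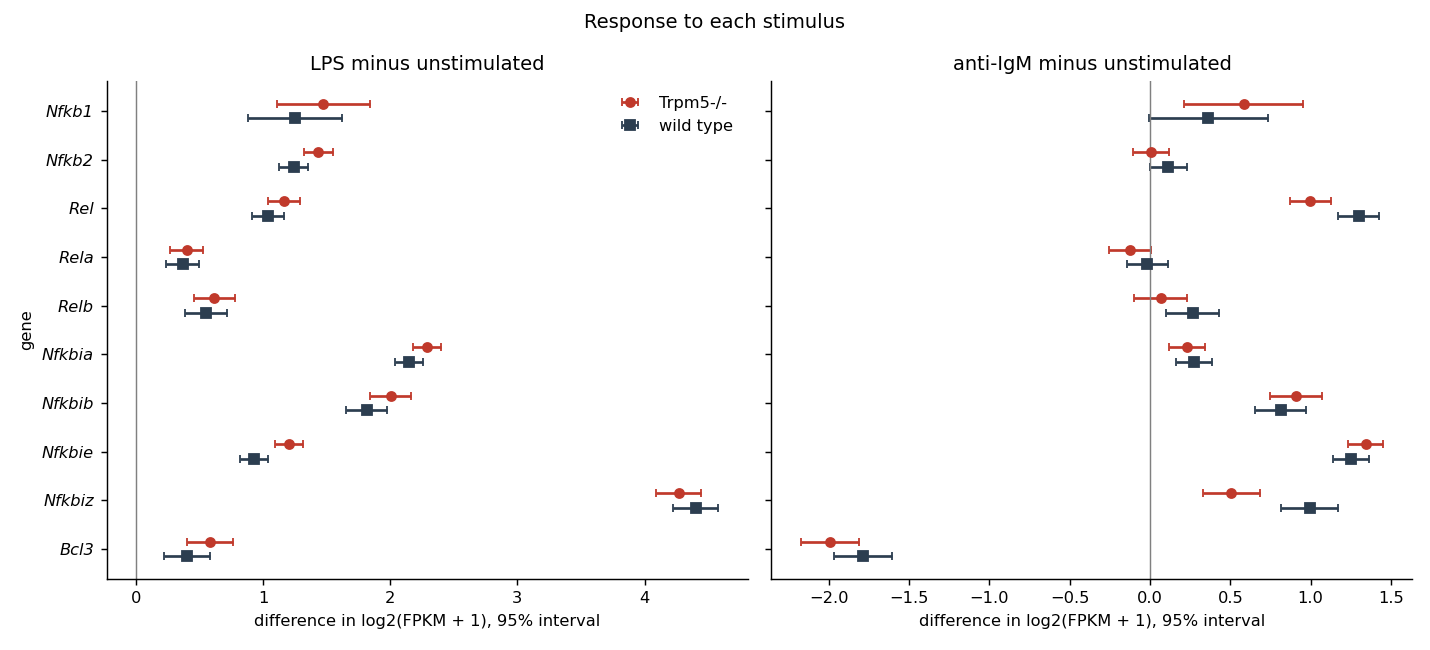
Difference in log2(FPKM + 1) between stimulated and unstimulated cells for each gene (rows), with 95% intervals, for LPS (left) and anti-IgM (right, on a scale of its own), Trpm5-/- as red circles and wild type as dark squares. All 10 genes lie above 0 with LPS (with quantile normalization Rela turned to -0.07 in Trpm5-/- and -0.11 in wild-type cells and Bcl3 to -0.01 in wild-type cells), whereas with anti-IgM Bcl3 lies at -1.99 in Trpm5-/- and -1.79 in wild-type cells and Rela and Nfkb2 lie near 0.

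Fewer of the 10 genes were called with anti-IgM. In each genotype 6 rose and 1 fell, against a background of 26.9% of tested genes higher and 23.0% lower in Trpm5-/- cells and 27.7% and 20.9% in wild-type cells. The median of the 10 was 0.37 and 0.32, beside 0.00 and 0.02 for all tested genes. With quantile normalization 5 rose and 3 fell in Trpm5-/- cells, and 4 rose and 2 fell in wild-type cells. These differences share their unstimulated libraries with the LPS differences. The summed B cell markers stood lower still with anti-IgM, at 1632 to 1663 FPKM in Trpm5-/- and 1895 to 1907 FPKM in wild-type cells, and their part in the anti-IgM result was not tested.

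Rel and Nfkbie rose most under anti-IgM. Rel read 96.7 and 92.5 FPKM in Trpm5-/- cells with anti-IgM, against 47.2 and 46.6 FPKM without stimulus. In wild-type cells the values were 117 and 124 FPKM with anti-IgM, the highest Rel values of the series, against 47.1 and 50.0 FPKM without. The rises were 2.0-fold and 2.46-fold (limma adjusted p = 3.43e-07 and 7.06e-08). Under anti-IgM Nfkbie read 172 and 166 FPKM in Trpm5-/- and 162 and 166 FPKM in wild-type cells, more than double its unstimulated level, with rises of 1.34 ± 0.05 and 1.25 ± 0.05. Nfkbib rose by 0.91 ± 0.07 and 0.81 ± 0.07, to means of 125 ± 5.05 and 115 ± 3.86 FPKM (SD, n = 2). Nfkbiz rose by 0.51 ± 0.08 in Trpm5-/- and 0.99 ± 0.08 in wild-type cells, to levels far under those with LPS.

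Nfkbia, the gene with the highest LPS level, rose only by 0.23 ± 0.05 in Trpm5-/- and 0.28 ± 0.05 in wild-type cells with anti-IgM (limma adjusted p = 0.00337 and 0.00111), and with quantile normalization neither rise was called and the Trpm5-/- value turned to -0.01. Relb rose in wild-type cells by 0.26 ± 0.07 (limma adjusted p = 0.013), a call lost without wild-type unstimulated replicate 1, without wild-type anti-IgM replicate 2 and with quantile normalization. In Trpm5-/- cells Relb stood at 0.07 ± 0.07. Nfkb1 rose in Trpm5-/- cells by 0.58 ± 0.17 (limma adjusted p = 0.0142), a call lost without Trpm5-/- unstimulated replicate 2 or Trpm5-/- anti-IgM replicate 2, and stood at 0.36 ± 0.17 in wild-type cells. Nfkb2 stood at 0.00 ± 0.05 and 0.11 ± 0.05 and Rela at -0.13 ± 0.06 and -0.02 ± 0.06, none of them called. With quantile normalization Nfkb2 in Trpm5-/- cells stood at -0.21 ± 0.05 and was called lower (limma adjusted p = 0.00615), and Rela was called lower in both genotypes.

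Bcl3 was the gene that fell. It read 16.0 and 15.0 FPKM in Trpm5-/- cells with anti-IgM, against 60.1 and 69.7 FPKM without stimulus. Wild-type cells read 20.6 and 19.5 FPKM with anti-IgM and 71.0 and 72.4 FPKM without. All 4 anti-IgM libraries thus lay far below the unstimulated ones, and Bcl3 replaced Nfkbiz as the least abundant of the 10. The falls were -1.99 ± 0.08 and -1.79 ± 0.08 (limma adjusted p = 6.88e-08 and 8.84e-08) and were called under every alternative run. GENCODE M21 lists antisense genes that overlap Bcl3 (chromosome 7, 19808462 to 19822770), whose reads could not be separated from its own.

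Set directly against anti-IgM, LPS gave higher levels of 9 of the 10 genes in Trpm5-/- cells and of 8 in wild-type cells, against a background of 28.3% and 27.7% of tested genes higher and 23.6% and 25.0% lower with LPS. With quantile normalization 8 and 6 were higher. Nfkbiz differed most, by 3.76 ± 0.08 and 3.41 ± 0.08, followed by Bcl3 at 2.57 ± 0.08 and 2.19 ± 0.08 and Nfkbia at 2.06 ± 0.05 and 1.87 ± 0.05. Nfkbie was lower with LPS in both genotypes, by -0.14 ± 0.05 in Trpm5-/- (limma adjusted p = 0.0364) and -0.32 ± 0.05 in wild-type cells (limma adjusted p = 0.000328). The Trpm5-/- call of Nfkbie was lost in a fit of just the compared libraries and without any of 5 single libraries, Trpm5-/- LPS replicate 1, wild-type LPS replicates 1 and 2 and Trpm5-/- anti-IgM replicates 1 and 2. Rel was lower with LPS than with anti-IgM in wild-type cells (-0.26 ± 0.06, limma adjusted p = 0.00318). In Trpm5-/- cells Rel was higher with LPS (0.16 ± 0.06, limma adjusted p = 0.0325), a call lost without any 1 of the 4 libraries compared and in a fit of just those, and the value turned to -0.07 with quantile normalization.

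The order of levels and the balance within the family differed by stimulus. With LPS the order in Trpm5-/- cells was Nfkbia, Nfkbiz, Nfkbib, Nfkb2, Nfkbie, Rela, Relb, Rel, Bcl3 and Nfkb1, in which Relb and Rel, and Bcl3 and Nfkb1, overlapped. In wild-type cells Nfkb2 stood above Nfkbib, and Rela, Relb, Rel and Bcl3 overlapped as neighbours. With anti-IgM the order in Trpm5-/- cells was Nfkbia, Nfkbie, Nfkbib, Rel, Nfkb2, Rela, Relb, Nfkb1, Nfkbiz and Bcl3, with no overlap between neighbours. In wild-type cells Rel, Nfkbib and Nfkb2 overlapped after Nfkbie, as did Relb and Rela after them. The 3 classical inhibitor genes together stood at between 0.992 and 1.03 times the sum of the 5 subunit genes in the 4 libraries without stimulus, the genotypes overlapping. With LPS the ratios were 2.07 and 2.05 in Trpm5-/- and 2.01 and 2.08 in wild-type cells. With anti-IgM they were 1.35 and 1.36 in Trpm5-/- and 1.21 and 1.20 in wild-type cells, so that the genotypes overlapped with LPS and lay apart with anti-IgM. Nfkbia exceeded Nfkbie 6.59-fold and 5.82-fold in Trpm5-/- and 7.45-fold and 7.52-fold in wild-type cells with LPS, but only 1.34-fold and 1.35-fold, and 1.66-fold and 1.60-fold, with anti-IgM. Rel made up 25.0% and 24.2% of the subunit sum in Trpm5-/- and 25.8% and 27.3% in wild-type cells with anti-IgM, against 13.6% to 14.5% in the unstimulated libraries. With LPS Nfkb2 held the largest share, 36.2% and 37.1% in Trpm5-/- and 38.3% in both wild-type libraries. Ratios of transcripts say nothing of protein, and no test was made on them.

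**Figure D3:**
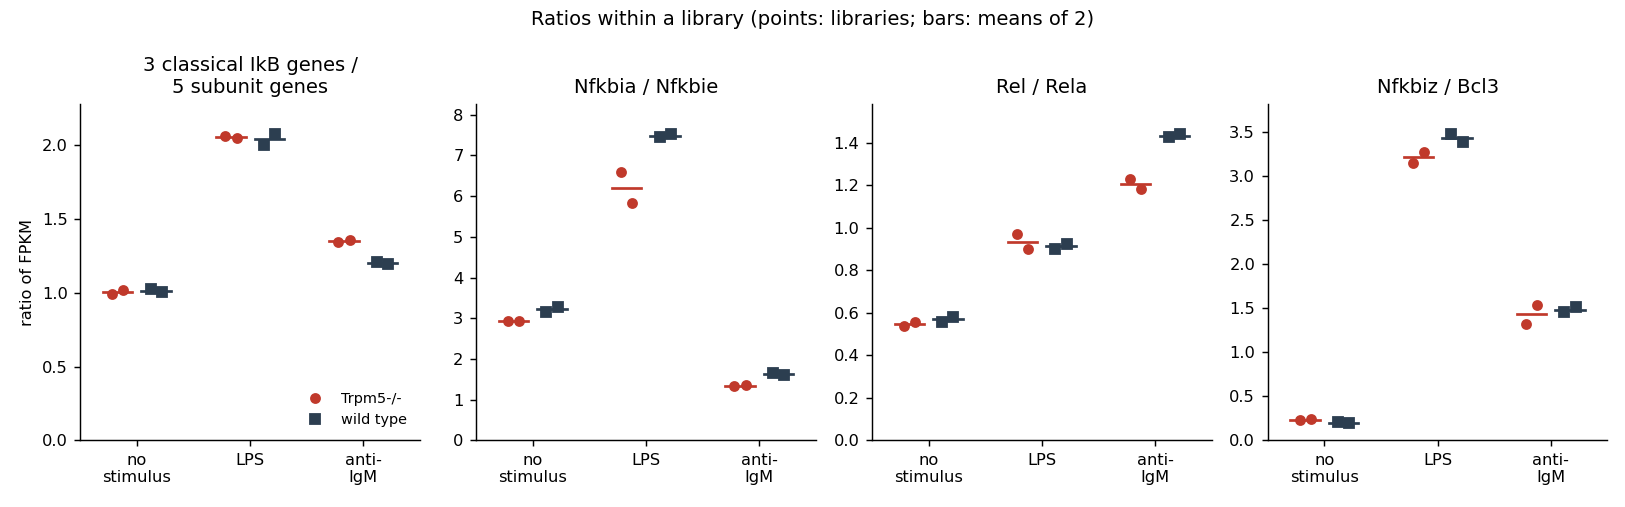
Ratios of FPKM within a library (vertical axes, from 0) by condition, Trpm5-/- as red circles, wild type as dark squares, means of 2 as bars. The ratio of inhibitor to subunit transcripts lay between 2.01 and 2.08 with LPS, and with anti-IgM at 1.35 and 1.36 in Trpm5-/- and 1.21 and 1.20 in wild-type cells.

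Between genotypes the differences were small, all under 1.5-fold. Marginal zone markers summed to 1278 to 1291 FPKM in Trpm5-/- and 946 to 968 FPKM in wild-type cells without stimulus, and to 783 to 822 and 562 to 581 FPKM with LPS. The members did not move together. With LPS Cd9 read 458 and 421 FPKM in Trpm5-/- and 241 and 249.9 FPKM in wild-type cells, most of the gap. Dtx1 read 48.3 and 50.9 against 31.2 and 32.3 FPKM, and Cd36 82.9 and 76.5 against 51.4 and 54.0 FPKM. Plxnd1, S1pr3 and, by little, Cd1d1 were also higher in Trpm5-/- cells with LPS. Cr2 was lower there, at 70.3 and 75.1 against 86.4 and 87.4 FPKM. So was Mzb1, at 139.6 and 136 against 143 and 147 FPKM. Follicular markers summed to 767 to 801 FPKM in Trpm5-/- and 1023 to 1029.9 FPKM in wild-type cells without stimulus, and to 1144 to 1146 and 1619 to 1628 FPKM with LPS. Erythroid markers summed with LPS to 235 to 274 FPKM in Trpm5-/- and 342 to 378 FPKM in wild-type cells. The part of these markers in the differences was not tested. Without stimulus 1 of the 10 genes was called lower in Trpm5-/- cells and none higher, against a background of 1.66% of tested genes lower and 4.45% higher. That gene was Nfkb2, at 86.3 and 92.7 FPKM in Trpm5-/- and 108 and 104 FPKM in wild-type cells, a difference of -0.24 ± 0.05 (limma adjusted p = 0.0232). The groups did not overlap, but the call was lost without Trpm5-/- replicate 1 or either wild-type replicate and in a fit of just the compared libraries. Nfkbia stood at -0.19 ± 0.05 (limma adjusted p = 0.0585) and was called with quantile normalization, which made 2 calls here. The whole table held 481 higher and 179 lower calls, and with quantile normalization 442 and 277.

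With LPS only Nfkbie was called between genotypes, against a background of 1.82% of tested genes higher in Trpm5-/- cells and 1.78% lower. It read 149.6 and 157 FPKM in Trpm5-/- and 130.3 and 132 FPKM in wild-type cells, without overlap, a difference of 0.22 ± 0.05 (limma adjusted p = 0.0351, 0.031 to 0.206 over the alternatives). The call was lost in 10 of the 12 fits that left out a library (all but those without a wild-type unstimulated library), in a fit of just the compared libraries and with quantile normalization. Nfkbib stood at 0.20 ± 0.07 (limma adjusted p = 0.175). For Nfkbiz, which LPS raised most, the difference was -0.06 with a 95% interval of -0.24 to 0.11, for Nfkbia it was -0.05 (-0.16 to 0.06), and for Rel it was 0.07 (-0.05 to 0.20). The whole table held 196 higher and 192 lower, and with quantile normalization 117 and 188.

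With anti-IgM 5 of the 10 genes were lower in Trpm5-/- cells and none was higher, against a background of 1.92% of tested genes lower and 1.91% higher. They were the subunit genes Nfkb2 and Rel, the inhibitor Nfkbia and both nuclear members, Nfkbiz and Bcl3. The median of the 10 was -0.24, beside 0.00 for all tested genes. Nfkb2 read 89.2 and 90.3 FPKM in Trpm5-/- and 115 FPKM in both wild-type libraries, and its difference of -0.35 ± 0.05 (limma adjusted p = 0.00507) was called under every alternative run. Rel read 96.7 and 92.5 FPKM in Trpm5-/- and 117 and 124 FPKM in wild-type cells, a difference of -0.35 ± 0.06 (limma adjusted p = 0.00858). It lost its call without replicate 2 of either group and in a fit of just the compared libraries. All Trpm5-/- libraries of these genes lay below all wild-type ones.

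Under anti-IgM Nfkbiz read 21.2 and 23.0 FPKM in Trpm5-/- and 30.1 and 29.5 FPKM in wild-type cells. The difference of -0.42 ± 0.08 (limma adjusted p = 0.0187) was the largest of the 10 here, and the call was lost without any 1 of the 4 compared libraries and in a fit of just those. Nfkbia read 229 and 225 FPKM in Trpm5-/- and 268 and 265 FPKM in wild-type cells (-0.23 ± 0.05, limma adjusted p = 0.032). Bcl3 read 16.0 and 15.0 FPKM in Trpm5-/- and 20.6 and 19.5 FPKM in wild-type cells (-0.35 ± 0.08, limma adjusted p = 0.0415). The calls of Nfkbia and Bcl3 were the least firm, lost in 8 and 10 of the 12 fits without 1 library, among them all 4 that left out a library compared. Both were also lost in a fit of just the compared libraries, and Bcl3 also with quantile normalization, the replicate block and no filter. Relb read 76.4 and 68.9 FPKM in Trpm5-/- and 85.2 and 88.1 FPKM in wild-type cells, without overlap, but its difference of -0.25 ± 0.07 was not called (limma adjusted p = 0.0903). The 95% intervals of the other uncalled differences ran from -0.05 to 0.28 for Nfkbib, -0.07 to 0.15 for Nfkbie, -0.23 to 0.03 for Rela and -0.31 to 0.43 for Nfkb1. The count of 5 became 4 with quantile normalization and 1 in a fit of just the compared libraries. It became 1 without replicate 2 of either anti-IgM group, 2 without replicate 1 of either, and 3 without either wild-type LPS library. Under anti-IgM erythroid markers summed to 100.5 to 196 FPKM in Trpm5-/- and 375 to 518 FPKM in wild-type cells, marginal zone markers to 914 to 941 and 714 to 717 FPKM, and follicular B cell markers to 279 to 294 and 394 to 421 FPKM. Their part in the result was not tested.

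**Figure D4:**
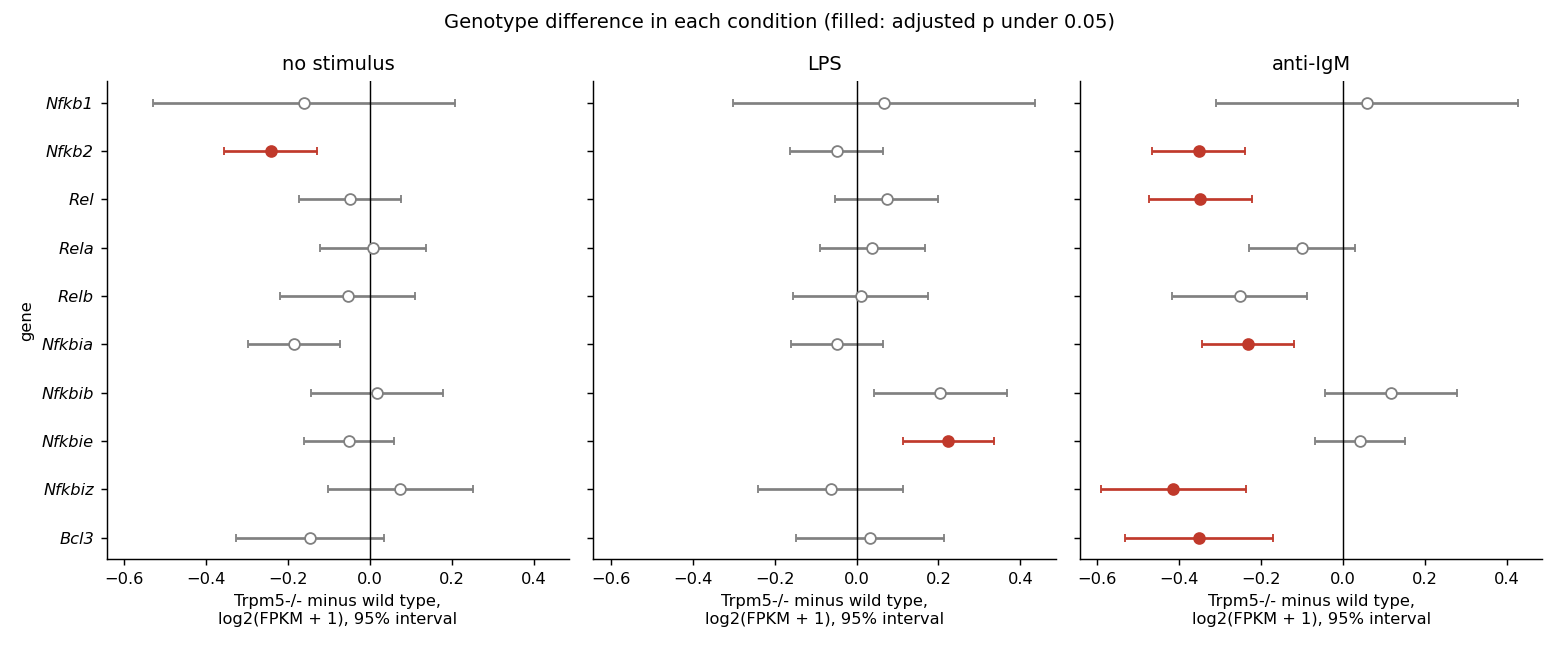
Difference between Trpm5-/- and wild-type cells in log2(FPKM + 1), with 95% intervals, for each gene (rows) in each condition (panels). Filled red points passed an adjusted p of 0.05, 1 without stimulus, 1 with LPS and 5 with anti-IgM, the last all below 0.

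Averaged over the 3 conditions, 4 genes were called lower in Trpm5-/- cells and none higher, against a background of 5.88% of tested genes lower and 10.2% higher. Nfkb2 stood at -0.21 ± 0.03 (limma adjusted p = 0.00107) and Nfkbia at -0.16 ± 0.03 (limma adjusted p = 0.00535). Rel at -0.11 ± 0.03 and Bcl3 at -0.16 ± 0.05 had a limma adjusted p of 0.0488 each, and both lost the call with the replicate number as a block, which left 2 calls. The calls of Rel and Bcl3 were each kept in 5 of 18 alternatives, and those of Nfkb2 and Nfkbia in all 18. Among fits without 1 library, Rel kept its call only without wild-type unstimulated replicate 1, and Bcl3 only without Trpm5-/- unstimulated replicate 2. Rel also lost it with a pseudocount of 0.1, and Bcl3 with no filter. Nfkbib was called higher without Trpm5-/- unstimulated replicate 1, and Nfkbiz lower without replicate 2 of that group. The whole table held 1097 higher and 635 lower calls, and with quantile normalization 786 and 730. No gene of the 10 was called for an interaction of genotype with LPS or with anti-IgM in limma, against a background of 0.102% and 0.0278% of tested genes called. At an unadjusted p under 0.05 there were 2 of the 10 for each interaction, Nfkb2 and Nfkbie with LPS and Rel and Nfkbiz with anti-IgM, beside 10.3% and 7.94% of all tested genes. The smallest adjusted p was 0.237 with LPS, for Nfkbie at 0.28 ± 0.07, and 0.317 with anti-IgM, for Nfkbiz at -0.49 ± 0.11 with a 95% interval of -0.74 to -0.24. The differences under anti-IgM are therefore not shown to differ from those without stimulus.

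Other genes of the pathway were taken from 3 lists chosen by function. Of 12 genes of the IKK complex and its direct activators, 3 rose and 6 fell with LPS in Trpm5-/- cells. In wild-type cells 4 rose and 5 fell. The background was 34.8% and 35.0% of tested genes higher and 33.8% and 34.4% lower. The medians of the 12 were -0.19 and -0.15, and with quantile normalization 2 rose and 5 fell in each genotype. Map3k7, the kinase TAK1 that activates IKK, rose by 0.53 ± 0.07 and 0.72 ± 0.07, whereas Prkcb, a protein kinase C of B cell receptor signalling, fell by 0.31 and 0.37. With anti-IgM 26.9% of all tested genes rose and 23.0% fell in Trpm5-/- cells, and 27.7% and 20.9% in wild-type cells. Of the 12, 4 fell and none rose in Trpm5-/- cells, and 4 fell and 1 rose in wild-type cells. With quantile normalization 1 rose in Trpm5-/- cells too. In each genotype those that fell included Prkcb, Tab2 and Map3k14, the kinase NIK that starts p100 processing. Between genotypes limma called none with LPS or anti-IgM. There 1 and 3 had an unadjusted p under 0.05, beside 16.7% and 19.6% of all tested genes. Map3k7 alone was called without stimulus, at 0.30 ± 0.07 (limma adjusted p = 0.045), beside 4.45% of all tested genes called higher. That call was lost without any 1 of the 12 libraries.

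Of 15 brakes and turnover factors of NF-kB, 8 rose and 3 fell with LPS in Trpm5-/- cells, and 6 rose and 3 fell in wild-type cells, beside 34.8% and 35.0% of all tested genes higher and 33.8% and 34.4% lower. With quantile normalization the split in Trpm5-/- cells was 6 and 5. Tnfaip3, the ubiquitin-editing enzyme A20 that ends NF-kB signals, rose by 2.86 ± 0.06 and 2.89 ± 0.06, and Birc3, the ubiquitin ligase cIAP2, by 1.47 ± 0.05 and 1.57 ± 0.05. Nfkbid, a further nuclear IkB gene, rose by 1.01 ± 0.05 and 1.07 ± 0.05. With anti-IgM Tnfaip3 rose by 0.65 ± 0.06 and 0.80 ± 0.06, but Birc3 fell by 0.94 and 0.75. Between genotypes with anti-IgM, Tnfaip3 (-0.37 ± 0.06), Birc2, the ligase cIAP1 (-0.44 ± 0.09), and Birc3 (-0.21 ± 0.05) were lower in Trpm5-/- cells. Nfkbid was higher, with 248 and 250.1 FPKM in Trpm5-/- and 198 and 206 FPKM in wild-type cells (0.30 ± 0.05, limma adjusted p = 0.00974), a call lost with quantile normalization. The calls of Birc2, Birc3 and Nfkbid were lost without any 1 of the 4 compared libraries, and that of Tnfaip3 without 3 of them, all but Trpm5-/- replicate 1. The sign of Nfkbid was opposite to that of Nfkbiz and Bcl3 in that comparison.

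Of 32 NF-kB target genes outside the 10, among them Tnfaip3, Birc3 and Nfkbid again, 30 rose and 1 fell with LPS in Trpm5-/- cells. In wild-type cells 28 rose and 1 fell, and the medians were 2.06 in Trpm5-/- and 2.35 in wild-type cells. Of all tested genes 34.8% and 35.0% rose and 33.8% and 34.4% fell. Bcl2l1, the survival gene Bcl-xL, rose by 4.47 ± 0.06 and 4.28 ± 0.06, and Myc by 2.87 ± 0.05 and 3.04 ± 0.05. Ltb, a lymphotoxin chain, was the 1 that fell in each. With anti-IgM 17 rose and 7 fell in Trpm5-/- cells, and 17 rose and 6 fell in wild-type cells, with medians of 0.33 and 0.40. Of all tested genes 26.9% and 27.7% rose with anti-IgM and 23.0% and 20.9% fell. Between genotypes with anti-IgM 1.92% of all tested genes were called lower and 1.91% higher in Trpm5-/- cells. Of the targets 6 were lower and 3 higher, and the median was 0.03. With quantile normalization these were 8, 2 and -0.045. The lower count was 3 without Trpm5-/- anti-IgM replicate 2 or either wild-type anti-IgM replicate, 4 without either wild-type LPS replicate, and 0 in a fit of just the compared libraries, and the median ran from -0.080 to 0.027 without 1 library. The lower ones included Bcl2l1 (-0.55 ± 0.06) and Ltb (-0.63 ± 0.07), and the higher ones the chemokine genes Ccl3 (1.08 ± 0.07) and Ccl4 (1.04 ± 0.07). Of all tested genes 1.78% were lower and 1.82% higher in Trpm5-/- cells with LPS, and 1.66% and 4.45% without stimulus. Of the targets 1 was lower and 2 were higher with LPS, and with quantile normalization 2 and 1. Without stimulus 4 were lower and 5 higher, and without 1 library 0 to 3 and 2 to 5, fewest without Trpm5-/- unstimulated replicate 1. Ccl3 (0.90 ± 0.07) and Ccl4 (0.61 ± 0.07) were already among the higher ones there.

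For each of the 10 genes the 3 tested genes of highest Pearson r over the 12 libraries were listed, as a description of libraries that share their condition and their scaling. Traf1, an adaptor of TNF receptors, was closest to Nfkbia (r = 0.998) and also among the closest to Nfkbiz (r = 0.995). Zbtb46, a transcription factor used as a dendritic cell marker, was closest to Nfkbiz (r = 0.996), and the chemokine receptor gene Ccr7 came after Traf1 (r = 0.995). Zbtb46 read 64.9 to 70.2 FPKM with LPS and at most 11.9 FPKM elsewhere, and Flt3, another of the 4 dendritic cell markers, 5.36 to 6.16 FPKM with LPS and 0.983 to 1.93 FPKM elsewhere. The other two, Xcr1 and Siglech, stayed under 1 FPKM, and the part of such cells in the result was not tested. Rel lay closest to Gnl1 (r = 0.988). Nfkbib lay closest to Smu1 (r = 0.998), and Nfkbie to Mafg (r = 0.987), a partner of bZIP transcription factors.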

How the data were processed

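RNA of the cells was amplified as full-length cDNA and sequenced on libraries made with a Nextera kit, per the labels' protocols. The authors' alignment and quantification used TopHat2 2.0.13 with Bowtie2 2.2.3, SAMtools 0.1.19 and Cufflinks 2.2.1 on mm10, per the submitters' processing notes. The deposited files list 1 value per symbol and library, taken here as the FPKM that the authors computed with Cufflinks, although no header names a unit. The annotation is not stated. Median ratios to the geometric mean of the 12 libraries were 1.008 to 1.015, and no scaling was added.

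The symbols that reached 1 FPKM in 2 or more libraries, 10797 in all, were put on the log2(FPKM + 1) scale. Group means over the 12 libraries were fitted with limma 3.58.1 (R 4.3.3, trended eBayes, 6 residual degrees of freedom). They gave 12 comparisons, 2-sided, with Benjamini-Hochberg adjustment over all tested genes, and the code was tested on simulated data. Positions are from GENCODE M21. All 10 genes were named, and from each pathway list at most the 4 genes of smallest p in a comparison. The members and lists were chosen with earlier results of these data known. Alternatives were a pseudocount of 0.1, no filter, a mean of at least 5 FPKM, quantile and median-ratio scaling, a replicate block, the compared libraries alone, and leaving out each library.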

Additional observations from a re-analysis of the deposited data

How the results depend on the processing

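Of 2270 values of the 10 genes recomputed over 19 alternatives, 2121 kept direction and side of the threshold, 95 lost the call, 11 gained one and 43 changed sign. Quantile normalization turned the genotype difference without stimulus to -0.042 for Rela and -0.027 for Nfkbib, that with LPS to -0.000794 for Nfkb1, -0.00239 for Rela, -0.030 for Relb and -0.030 for Bcl3, and that with anti-IgM to -0.054 for Nfkbie. It turned the LPS response of Rela to -0.075 in Trpm5-/- and -0.11 in wild-type cells and that of Bcl3 to -0.010 in wild-type cells. It turned the anti-IgM response to -0.21 for Nfkb2, -0.11 for Relb and -0.011 for Nfkbia in Trpm5-/- cells and to -0.11 for Nfkb2 in wild-type cells, and LPS against anti-IgM to -0.074 for Rel in Trpm5-/- cells. Of the 10 genes it called 2 between genotypes without stimulus and 0 with LPS.

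In fits of the compared libraries alone the genotype difference called 0 of the 10 and 51 of all genes without stimulus, 0 and 21 with LPS, and 1 and 116 with anti-IgM, and each interaction called 5 genes. These fits hold fewer libraries. The interaction with anti-IgM called 9 genes without the filter on low values.

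The labels do not say whether the replicate numbers pair the libraries, and with 2 libraries a group the values cannot settle it. Over 15 pairs of groups the same-numbered deviations correlated at -0.172 to 0.199, with 3 pairs over 0.1. The replicate block left 2 of the 10 called in the mean genotype difference and 6 genes in the interaction with LPS.

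Leaving out 1 library at a time, the genotype difference called 0 to 2 of the 10 and 159 to 621 genes without stimulus, 0 to 1 and 158 to 365 with LPS, 1 to 4 and 119 to 461 with anti-IgM, and 2 to 4 of the 10 on average. The interactions called 3 to 23 genes with LPS and 2 to 7 with anti-IgM. Signs changed only among uncalled values. Without stimulus the genotype difference spanned -0.021 to 0.037 for Rela, -0.12 to 0.0071 for Relb, -0.086 to 0.12 for Nfkbib and -0.040 to 0.19 for Nfkbiz. With LPS it spanned -0.21 to 0.34 for Nfkb1, -0.011 to 0.089 for Rela, -0.049 to 0.069 for Relb, -0.10 to 0.0076 for Nfkbia and -0.034 to 0.10 for Bcl3, and for Nfkb1 -0.13 to 0.24 with anti-IgM and -0.10 to 0.079 on average. The anti-IgM response spanned -0.053 to 0.020 for wild-type Rela, and -0.046 to 0.056 for Nfkb2 and -0.0079 to 0.14 for Relb in Trpm5-/- cells. The interaction with LPS spanned -0.046 to 0.50 for Nfkb1 and -0.019 to 0.081 for Rela, and that with anti-IgM -0.0046 to 0.20 for Nfkbib. The causes were not tested. The number of fragments behind each value is unknown, and with 2 libraries a group small differences such as those between genotypes may be missed.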

Other observations

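Rel was ordered differently by genotype under the 2 stimuli. It read 106 FPKM in both Trpm5-/- libraries and 103 and 99.0 FPKM in the wild-type libraries with LPS, but 96.7 and 92.5 FPKM in Trpm5-/- and 117 and 124 FPKM in wild-type cells under anti-IgM. After this was seen, the genotype difference with LPS was set against that with anti-IgM in the same limma model. The contrast was 0.42 ± 0.08 for Rel, with a 95% interval of 0.24 to 0.60 and an adjusted p of 0.109 (0.0992 to 0.338 over 17 alternatives, in which the value ran from 0.38 to 0.47). It was not called, and neither was any other of the 10 genes, against a background of 0.111% of tested genes called. At an unadjusted p under 0.05 there were 7 of the 10, beside 9.80% of all tested genes. All 10 values were above 0, that of Nfkb1 by only 0.0077 ± 0.23. The alternatives of this contrast were run for Rel alone. With quantile normalization the genotype difference of Nfkb1 was -0.000794 with LPS and 0.040 with anti-IgM, which puts its contrast below 0. The 4 libraries of Rel with LPS and the 4 with anti-IgM are those already given, so this is no further evidence.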
